A study of Mus musculus with 8 samples.

Results

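The genes described here are 10 transcriptional outputs of the extracellular signal-regulated kinase (ERK) pathway: the phosphatase genes Dusp4, Dusp5 and Dusp6, the Sprouty genes Spry1, Spry2 and Spry4, the Spred genes Spred1 and Spred2, and the transcription factor genes Etv4 and Etv5. They were chosen by name as known feedback and output genes of ERK, with earlier results of these data known. They were found by Entrez identifier, 10 of the 36528 identifiers in each table. All 10 passed the filter on low counts, among 16929 genes tested. RNA came from the mouse omentum, from primary mesothelial cells, which form the flat lining of body cavities. There were 4 WT libraries and 4 BAP1 KO libraries, and the only difference the labels give is knockout of BAP1, an enzyme of the nucleus that takes ubiquitin off histone H2A and whose gene is often lost in mesothelioma. The sources used here do not give how BAP1 was deleted, the age and strain of the mice or whether animals were pooled. It is not stated whether each library had its own animal or culture, so the p-values reflect the variation among libraries alone, and part or all of it may be technical.

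In the ERK pathway, growth factors bind receptor tyrosine kinases, which activate RAS, then the kinases RAF, MEK and ERK in turn. ERK enters the nucleus and switches on genes, and several of these encode inhibitors of the same pathway, so that the signal limits itself. DUSP proteins remove the activating phosphates from ERK, Sprouty proteins dampen the signal between the receptor and RAF, and SPRED proteins bring neurofibromin to the membrane, where it turns RAS off. ETV4 and ETV5 are ETS-family transcription factors that carry the signal on to further genes. The levels of these RNAs are often used as a readout of ERK activity, but ERK phosphorylation itself was not measured here.

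Total counts were 67.1 to 84.9 M per library. The labels give no replicate numbers, so the libraries of each genotype are numbered and listed here in sample order. Levels are given in CPM, which are counts per M after TMM scaling of each library. The targeted gene Bap1 was at 62.6 to 64.2 CPM in the WT libraries and at 52.0 to 54.0 CPM in the BAP1 KO libraries, a log2 fold change of -0.25 ± 0.03 (SE; edgeR adjusted p = 2.1e-09). Reads are not split by exon, so those from exons that may remain check nothing. The cells expressed the mesothelial markers Upk3b, Lrrn4, Upk1b and Wt1 at mean levels of 462, 236, 229.6 and 121 CPM in WT, while Krt8 and Msln were low at 2.35 and 6.95 CPM. The macrophage marker Lyz2 stood at 8388 CPM in WT, so other cell types contributed to the RNA. In bulk RNA, fewer cells of a type and less RNA per cell cannot be told apart.

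Of the 10 genes, 9 were lower in BAP1 KO cells and 0 were higher (edgeR, adjusted p below 0.05; 0 also at an unadjusted p below 0.05, by DESeq2 and by limma-voom). The exception, Spred2, did not pass. Over all genes tested, 61.1% passed in either direction, 32.1% were lower and 29.0% were higher; which direction had more calls depended on the scaling, with 5345 higher and 4808 lower after removal of GC and length trends and 5231 and 5203 with the authors' size factors. The median log2 fold change was -0.45 over the 10 genes and -0.005 over all genes tested. In the same 9 genes every BAP1 KO value lay below every WT value, which was so for 28.7% of the genes tested. The falls were modest, from 1.11-fold for Etv5 to 1.81-fold for Etv4. Against a 1.5-fold change, 3 of the 10 passed (Dusp5, Spry1 and Etv4; edgeR adjusted p = 0.00019, 6e-07 and 1.1e-06), and 5.99% of all genes tested were lower by that test.

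**Figure D1:**
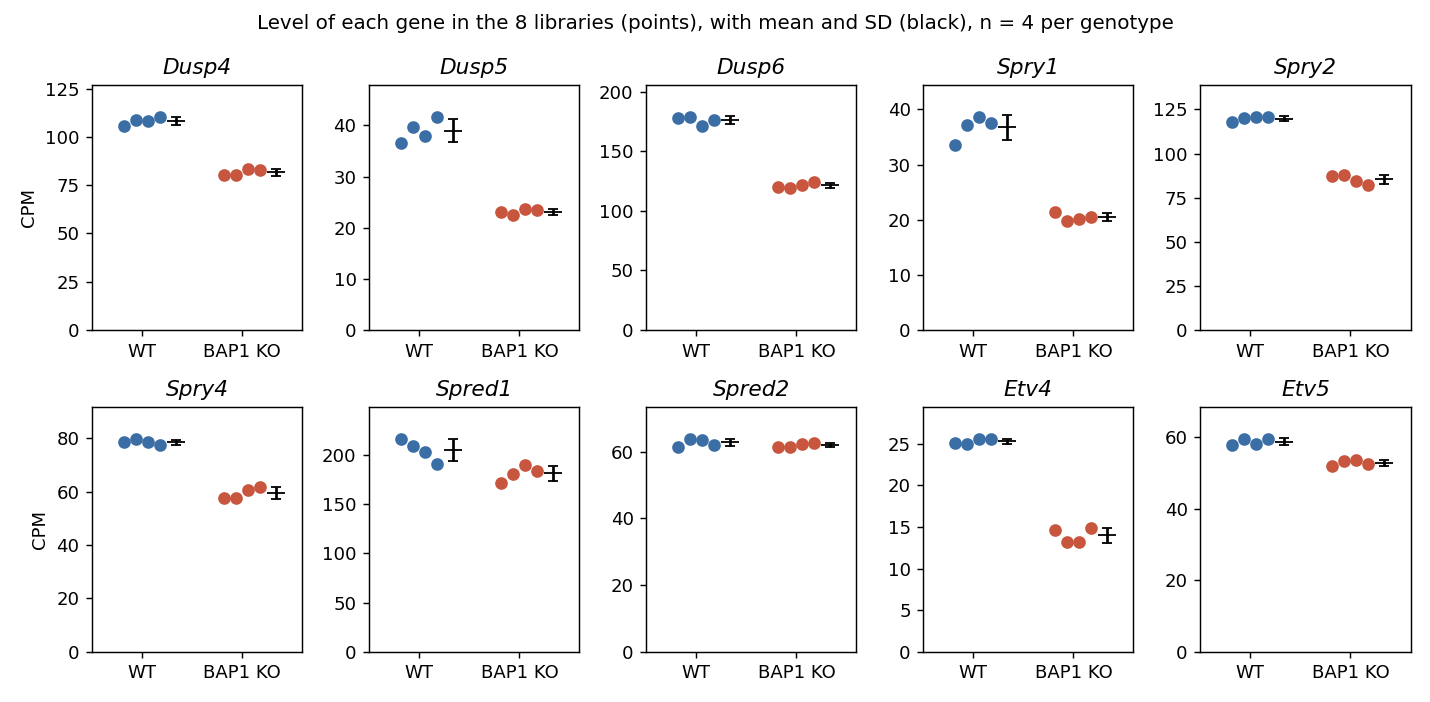
CPM of each of the 10 genes in the 8 libraries, on an axis that starts at 0 in every panel; points are libraries (blue WT, red BAP1 KO), and the black marks are the mean and SD of 4 libraries. The red points lie below the blue points in every panel except that of Spred2, where both lie between 61.5 and 63.9 CPM.

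Promoters from RefSeq (GRCm38.p6) were read for 7 of the 10 genes (Dusp5, Dusp6, Spry1, Spry2, Spred1, Spred2 and Etv5, the last with a pair of start sites). The 250 bases before each start were searched on both strands for motifs of factors that act at the end of the pathway. These were the CArG box bound by serum response factor, the ETS-type sequence CGGAAG, and the cAMP response element TGACGTCA with its shorter form TGACGT. The AP-1 site TGANTCA and the octamers TGAATGAA and TGAATGGA of the repressor Capicua were also searched. Only these letters were searched, so other ETS-type sequences were not counted. A CArG box was found in 1 of the 7 genes, Dusp5, which has 2 of them side by side, starting at positions -82 and -72 from the start of transcription; 1.47% of all 32851 promoter windows hold one. The sequence CGGAAG was found in 3 of the 7, Dusp6, Spred1 and Spred2, against 13.6% of all windows. The shorter form TGACGT was found in Dusp5 and Spred2, against 6.47%. The full cAMP response element (1.55% of all windows) and the AP-1 site (6.75%) were not in these windows. Neither were the octamers TGAATGAA and TGAATGGA (1.08% and 1.01%). Other forms of the Capicua site were not searched, so its absence is not shown. The last 120 bases before the start are shown for the 4 genes with a CArG box or CGGAAG. They set a gene that fell strongly (Dusp5) beside one that did not pass (Spred2). All 4 are plus strand, 5′ to 3′. Capitals mark the CArG boxes of Dusp5 and, in the other 3, CGGAAG read on either strand. Other ETS-type sequences are not marked.
Dusp5, chr19:53529025-53529144: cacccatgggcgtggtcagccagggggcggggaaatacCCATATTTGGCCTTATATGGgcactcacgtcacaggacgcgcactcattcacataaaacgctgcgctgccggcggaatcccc
Dusp6, chr10:99263111-99263230: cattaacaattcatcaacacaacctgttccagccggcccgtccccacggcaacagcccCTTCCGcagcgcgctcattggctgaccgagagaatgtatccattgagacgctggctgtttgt
Spred1, chr2:117120951-117121070: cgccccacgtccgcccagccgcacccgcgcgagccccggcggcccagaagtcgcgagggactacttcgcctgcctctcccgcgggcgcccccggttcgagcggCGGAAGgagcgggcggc
Spred2, chr11:19924322-19924441: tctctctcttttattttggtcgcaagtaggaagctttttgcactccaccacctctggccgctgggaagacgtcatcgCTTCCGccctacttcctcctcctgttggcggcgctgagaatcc
A match in letters is a description of the window, and binding was not measured. Dusp6, Spred1 and Spred2 share CGGAAG and had log2 fold changes of -0.54, -0.18 and -0.02.

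All 3 phosphatase genes fell. Dusp6 (Entrez 67603; GRCm38 chromosome 10, 99263231 to 99267489) encodes a cytoplasmic phosphatase that acts mainly on ERK, and it had the highest level per length of the 10 genes. It stood at 178, 179, 172 and 176 CPM in the WT libraries and at 120.1, 119, 122 and 124 CPM in the BAP1 KO libraries. The genotypes were well apart, with a highest BAP1 KO value of 124 CPM below a lowest WT value of 172 CPM. The mean fell from 176 ± 3.2 to 121 ± 2.3 CPM (SD, n = 4), to 68.9% of WT, a log2 fold change of -0.54 ± 0.02 (SE; edgeR adjusted p = 6.7e-19).

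Dusp4 (Entrez 319520; chromosome 8, 34807610 to 34819894), which encodes an inducible nuclear phosphatase, stood at 106, 109, 108 and 110.4 CPM in WT and at 80.1, 80.5, 83.6 and 83.0 CPM in BAP1 KO. Its 4 BAP1 KO values lay within 4 CPM of each other and all below WT. It fell to 75.5% of the WT mean, a log2 fold change of -0.41 ± 0.03 (edgeR adjusted p = 6.1e-15). Dusp5 (Entrez 240672; chromosome 19, 53529145 to 53541809), which encodes a nuclear phosphatase selective for ERK and has the adjacent CArG boxes shown above, stood at 36.5, 39.8, 37.9 and 41.7 CPM in WT and at 23.0, 22.4, 23.7 and 23.4 CPM in BAP1 KO. It had the largest fall of the 3 phosphatase genes, from 39.0 ± 2.2 to 23.1 ± 0.58 CPM (SD, n = 4), with a log2 fold change of -0.75 ± 0.04 (edgeR adjusted p = 4.2e-17). Exons of Dusp5 overlap those of an antisense transcript over 547 bp, and the library kit does not mark strand, so reads from that stretch cannot be told apart.

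All 3 Sprouty genes fell, Spry1 the most. Spry1 (Entrez 24063; chromosome 3, 37639947 to 37644599) stood at 33.6, 37.3, 38.6 and 37.5 CPM in WT and at 21.4, 19.7, 20.1 and 20.5 CPM in BAP1 KO. The first WT library was the lowest of its genotype, and still above every BAP1 KO library. The mean fell from 36.7 ± 2.2 to 20.4 ± 0.74 CPM (SD, n = 4), to 55.6% of WT, a log2 fold change of -0.85 ± 0.04 (edgeR adjusted p = 1.3e-17). Its exons overlap, over 710 bp, a transcript model on the opposite strand, whose reads likewise cannot be told apart.

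Spry2 (Entrez 24064; chromosome 14, 105891947 to 105896819), the most abundant Sprouty gene here, stood at 118, 120.3, 120.5 and 120.8 CPM in WT and at 87.0, 87.6, 84.6 and 82.4 CPM in BAP1 KO. The WT libraries differed by no more than 3 CPM. It fell by 0.49 ± 0.02 on the log2 scale (edgeR adjusted p = 5.2e-17). Spry4 (Entrez 24066; chromosome 18, 38586247 to 38601347), a Sprouty whose product also dampens receptor signalling to RAS and RAF, stood at 78.5, 79.9, 78.5 and 77.4 CPM in WT and at 57.5, 57.6, 60.5 and 61.8 CPM in BAP1 KO. With a log2 fold change of -0.40 ± 0.03 (edgeR adjusted p = 9.4e-14) it had the smallest fall of the 3.

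The Spred genes behaved differently from each other. Spred1 (Entrez 114715; chromosome 2, 117121071 to 117182279), mutated in the human RASopathy Legius syndrome, stood at 217, 209, 203 and 190.8 CPM in WT and at 171, 180.4, 190.1 and 183 CPM in BAP1 KO. Values spread more within each genotype than for most of the 10 genes, and the lowest WT library lay less than 1 CPM above the highest BAP1 KO library. In the authors' RPKM the genotypes overlapped, at 26.6 to 30.2 in WT and 24.1 to 26.7 in BAP1 KO. It fell by 0.18 ± 0.04 on the log2 scale (edgeR adjusted p = 0.00039), and by 0.11 after removal of GC and length trends (edgeR adjusted p = 1.04e-06).

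Spred2 (Entrez 114716; chromosome 11, 19924442 to 20024026), which shares the role of Spred1 at RAS, stood at 61.5, 63.9, 63.5 and 62.1 CPM in WT and at 61.5, 61.5, 62.3 and 62.7 CPM in BAP1 KO. All 4 BAP1 KO values lay within the WT range. The difference did not pass (log2 fold change -0.02 ± 0.03, edgeR adjusted p = 0.6), and 2 standard errors on either side span -0.07 to 0.04, so a fall of the size seen in the Sprouty genes lies outside that span.

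Etv4 and Etv5 are close relatives in the PEA3 group of ETS factors and both fell, by different amounts. Etv4 (Entrez 18612; chromosome 11, 101769747 to 101785310) stood at 25.1, 24.9, 25.6 and 25.6 CPM in WT and at 14.7, 13.2, 13.2 and 14.9 CPM in BAP1 KO. It had the largest fall of the 10 genes, from 25.3 ± 0.35 to 14.0 ± 0.9 CPM (SD, n = 4), to 55.4% of WT, with a log2 fold change of -0.86 ± 0.04 (edgeR adjusted p = 3.2e-17). Of all genes tested, 6.01% had a lower log2 fold change. Etv5 (Entrez 104156; chromosome 16, 22381313 to 22439570) stood at 57.7, 59.5, 58.1 and 59.5 CPM in WT and at 51.9, 53.3, 53.6 and 52.4 CPM in BAP1 KO. The genotypes did not overlap, but the step was small, with a log2 fold change of -0.15 ± 0.03 (edgeR adjusted p = 1.4e-05), and 31.5% of all genes tested had a lower one.

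An exact two-sided permutation test of the 8 log2 CPM values gave p = 0.029 for each of the 9 genes that fell, the smallest that 4 against 4 can give, and p = 0.37 for Spred2. Every gene whose genotypes do not overlap gets 0.029, so the test adds nothing to the non-overlap given above. Of 16929 genes tested, 4864 lay wholly lower in BAP1 KO and 4251 wholly higher. The 10 genes rested on 1015 to 17770 counts per library. Over the 17 alternatives other than the test against a 1.5-fold change, the 9 falls kept their direction and their call, with the highest adjusted p at 0.0031 for Spred1.

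**Figure D2:**
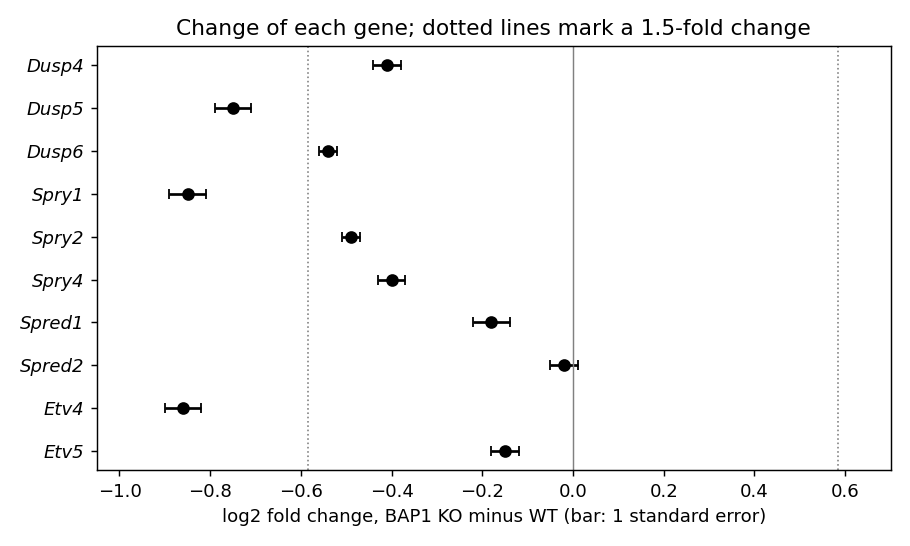
Log2 fold change of each gene, BAP1 KO minus WT, with bars of 1 standard error from edgeR; the solid line is no change and the dotted lines are 1.5-fold. Dusp5, Spry1 and Etv4 lie beyond the left dotted line, at -0.75, -0.85 and -0.86, and the bar of Spred2 crosses no change.

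Levels were compared between genes per length, with the authors' RPKM, which divide a gene's reads by its length and its library's size. In WT the order of mean RPKM was Dusp6 (62.2), Dusp4 (44.1), Spry2 (38.9), Dusp5 (33.3), Spred1 (28.6), Spry4 (16.9), Etv5 (14.3), Spry1 (13.7), Etv4 (9.31) and Spred2 (6.91). Of these neighbours, only Etv5 and Spry1 overlapped between libraries, at 14.0 to 14.5 and 12.6 to 14.5 RPKM. In BAP1 KO Dusp6 (43.2 RPKM), Dusp4 (33.5 RPKM) and Spry2 (28.0 RPKM) still led. Dusp5 (19.9 RPKM) came after Spred1 (25.5 RPKM), and Etv4 (5.20 RPKM) came after Spred2 (6.89 RPKM). Spry1 (7.69 RPKM) ended near Spred2. Spry4 and Etv5 overlapped there, at 12.5 to 13.4 and 12.8 to 13.1 RPKM.

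Within each family the members did not fall in proportion, so the make-up of the family shifted. These shares are taken within a library and do not depend on how libraries are scaled; they are a description, with no test. Etv4 made up 38.8 to 40.1% of the summed RPKM of Etv4 and Etv5 in the WT libraries and 27.2 to 30.1% in the BAP1 KO libraries, the widest shift. The sum of that pair went from 23.3 to 23.9 RPKM in WT to 17.9 to 18.3 RPKM in BAP1 KO. Spry1 made up 18.5 to 20.5% of the Sprouty sum in WT and 15.3 to 16.5% in BAP1 KO, while that sum went from 67.7 to 70.5 RPKM to 48.0 to 49.3 RPKM.

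Dusp5 made up 22.8 to 25.0% of the phosphatase sum in WT and 20.4 to 20.8% in BAP1 KO, and Dusp4 31.3 to 32.1% and 34.4 to 34.9%. The share of Dusp6 overlapped between genotypes, at 43.6 to 45.9% and 44.2 to 45.0%. The sum of the 3 phosphatase genes was 137 to 143 RPKM in WT and 94.5 to 98.3 RPKM in BAP1 KO. Spred1 made up 79.5 to 81.7% of the Spred sum in WT and 77.9 to 79.4% in BAP1 KO.

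**Figure D3:**
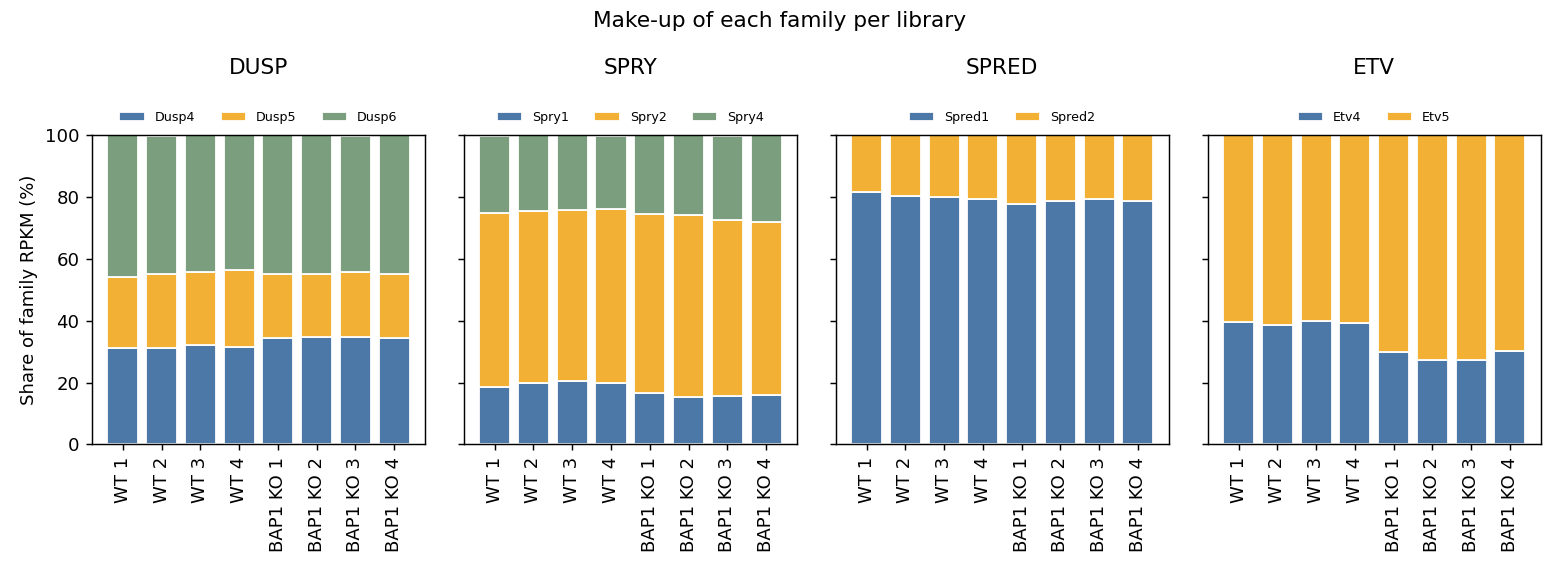
Share of each gene in the summed RPKM of its family, in percent, in each of the 8 libraries; colours are genes and each bar adds to the whole. The blue Etv4 segment is shorter in every BAP1 KO library (27.2 to 30.1%) than in every WT library (38.8 to 40.1%), while Spred1 stays at 77.9% or more of its pair in every library.

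Other genes of the pathway were counted by role, to be read beside the 29.0% of all genes tested that were higher and the 32.1% that were lower; the lists were not tested. At the top, 7 of 18 receptor tyrosine kinases rose, 5 fell and 6 did not pass. The median log2 fold change was -0.001, beside -0.005 for all genes tested. The collagen receptors Ddr2 and Ddr1 rose by 0.45 ± 0.02 and 0.37 ± 0.02, and the fibroblast growth factor receptor Fgfr2 by 0.34 ± 0.02. Fgfrl1, a related receptor without a kinase domain, fell from 28.0 to 20.7 CPM. The receptor of epidermal growth factor, Egfr, had mean levels of 207 and 204 CPM (edgeR adjusted p = 0.47).

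The next list held 26 tested genes of the cascade, from adaptors to ERK, with Rps6ka1 and Rps6ka3, kinases that ERK activates. Of these 26, 15 rose and 4 fell, and the other 7 did not pass. The median was 0.10. The adaptor Shc1 rose by 0.29 ± 0.02, and the small GTPases Rras and Hras by 0.27 ± 0.03 and 0.24 ± 0.03. Rps6ka1 fell from 72.5 to 62.5 CPM.

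Among 18 other negative regulators of RAS and ERK, 7 rose and 7 fell, and 4 did not pass; the median was 0.01. The 4 with the smallest adjusted p, named by rule, were all lower. Il17rd (SEF), which holds back signalling from fibroblast growth factor receptors, fell from 12.4 ± 0.29 to 5.61 ± 0.22 CPM (SD, n = 4), a log2 fold change of -1.14 ± 0.05 (edgeR adjusted p = 6.4e-18). Lrig1, which promotes breakdown of ERBB receptors, fell from 37.1 to 19.6 CPM. Errfi1 (MIG6), an inhibitor of the epidermal growth factor receptor, fell from 106 to 62.1 CPM, and Cblb, a ubiquitin ligase of receptors, from 47.3 to 27.6 CPM. In the other direction Rasal1, which encodes a RAS GTPase-activating protein, rose by 1.13 ± 0.16 from 0.52 CPM (edgeR adjusted p = 2.2e-07). Nf1, the neurofibromin gene that SPRED proteins depend on, rose by 0.19 ± 0.03, and the Sprouty and Spred genes outside the 10, Spry3 and Spred3, rose by 0.24 ± 0.09 and 0.12 ± 0.04 (edgeR adjusted p = 0.03 and 0.01).

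Of 7 other dual-specificity phosphatases of MAP kinases, 3 rose and 3 fell, and 1 did not pass, at a median of -0.07. Dusp7 and Dusp9 stand in both lists. Dusp10 and Dusp16, which act mainly on the stress kinases JNK and p38, fell by 0.39 ± 0.06 and 0.18 ± 0.04. Dusp8, of the same group, rose by 0.36 ± 0.05, and Dusp9 by 0.37 ± 0.11 from 1.74 CPM. Dusp7, the closest relative of Dusp6 in the cytoplasm, stood at 75.8 and 72.3 CPM (-0.07 ± 0.03, edgeR adjusted p = 0.038).

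Of 16 other tested ERK output genes (17 listed; Areg was too low to test), 9 fell and 3 rose, and 4 did not pass; the median was -0.12. Mmp3, a matrix protease, fell from 27.3 to 11.5 CPM (-1.24 ± 0.04), Emp1, a membrane protein, from 398 to 237 CPM (-0.75 ± 0.02), and Hmga2, a chromatin protein, from 38.3 to 23.4 CPM (-0.71 ± 0.04). Phlda1 fell by 0.38 ± 0.03. The cell cycle gene Ccnd1 rose by 0.24 ± 0.02 to 799 CPM. Etv1, the third member of the PEA3 group, stood at 10.8 CPM in both genotypes (edgeR adjusted p = 0.95), and Myc at 49.4 and 49.6 CPM (edgeR adjusted p = 0.89).

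Of 11 transcription factors and repressors that ERK regulates, 6 rose and 5 fell, and the median was 0.10. Ets1 and Ets2, which ERK phosphorylates, fell by 0.66 ± 0.03 and 0.34 ± 0.02, and Elk3 by 0.37 ± 0.03. Atxn1, a partner of Capicua, rose by 0.42 ± 0.03, and Cic, the Capicua gene, by 0.28 ± 0.03 (edgeR adjusted p = 1.1e-13 and 4.9e-09). In the same list Atxn1l fell by 0.12 ± 0.03 and Etv3 by 0.31 ± 0.03 (edgeR adjusted p = 0.00056 and 1e-10). Srf, the factor that binds CArG boxes, rose by 0.22 ± 0.03.

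**Figure D4:**
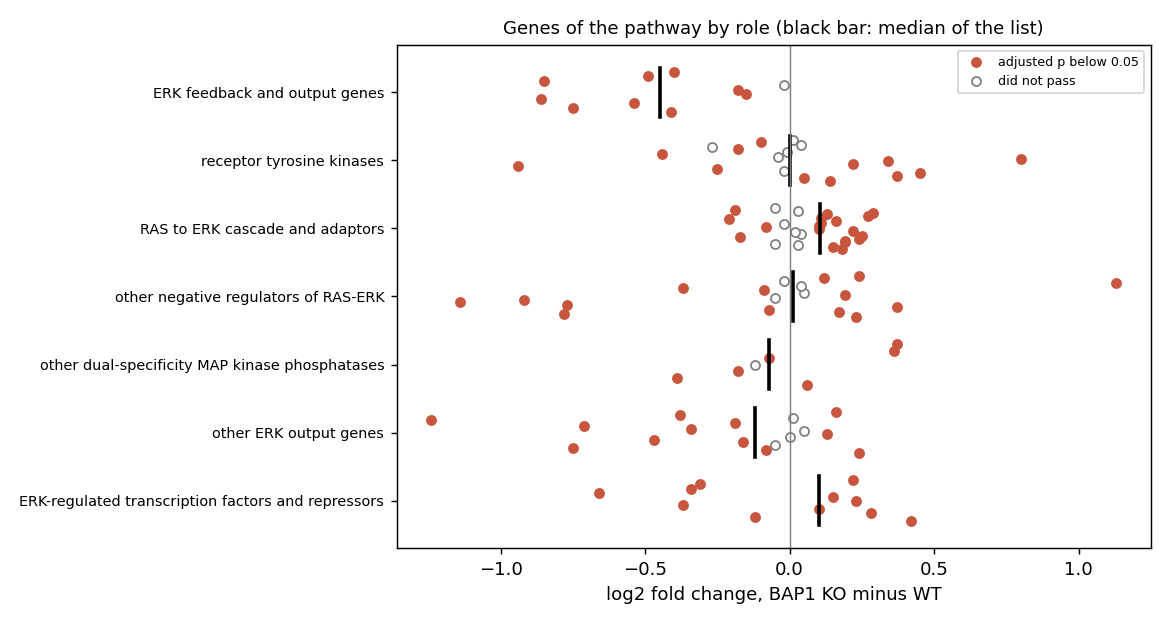
Log2 fold change of every tested gene by role in the pathway, BAP1 KO minus WT; red points have an edgeR adjusted p below 0.05, open points did not pass, and black bars are list medians. The top row, the 10 genes described here, lies at or left of 0 with a median of -0.45, while the other medians lie between -0.12 and 0.10.

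By root mean square difference of centred log2 CPM over the 8 libraries, the 3 genes with the profile most like that of Etv4 among 12521 compared were B4gat1, Ethe1 and Zfp287, each at a difference of 0.043. They went from 41.8 to 23.2, from 22.0 to 11.8 and from 6.04 to 3.31 CPM.

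Markers of several cell types also moved with genotype. Among the 7 fibroblast markers 6 fell and Pi16 did not pass, and their summed level was 9904 to 10635 CPM in WT and 8407 to 8764 CPM in BAP1 KO, or 1793 to 1848 CPM and 1357 to 1389.5 CPM without Col1a1. Of 9 macrophage markers 5 rose and 4 fell, with sums of 12869 to 13159 CPM and 15243 to 15737 CPM. Lyz2 rose from 8388 to 11027 CPM, and without it the other 8 summed to 4605 to 4676 CPM in WT and 4555 to 4577 CPM in BAP1 KO; Cd14 fell from 149 to 74.8 CPM. Among the 8 mesothelial markers there were 2 rises and 4 falls, with sums of 1055 to 1082 CPM and 1103 to 1109.8 CPM. Krt8, Krt18, Msln and Lrrn4 had log2 fold changes of -1.56 ± 0.13, -1.38 ± 0.07, -1.19 ± 0.07 and -0.14 ± 0.02. Those of Wt1 and Upk1b were 0.45 ± 0.02 and 0.13 ± 0.02, and Upk3b and Krt19 did not pass. The 5 smooth muscle and pericyte markers summed to 8495 to 8916 CPM and 8724 to 8841 CPM, with 2 rises and 2 falls. Endothelial markers (4 of 5 fell, of which Tek, at 0.25 CPM in WT, lost its call with DESeq2 and without WT replicate 1, 2 or 3 or BAP1 KO replicate 3 or 4) summed to 28.8 to 29.7 CPM and 18.4 to 19.5 CPM, and adipocyte markers (3 of 3 tested rose) to 7.93 to 8.81 CPM and 14.9 to 16.7 CPM, with Lep at 0 counts in every library. Lymphocyte markers summed to at most 2.54 CPM in any library. The part of these markers in the falls of the 10 genes was not tested.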

How the data were processed

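PolyA RNA of 8 libraries was read as single-end reads of 50 bp, per the labels' protocols, and GSNAP and the build GRCm38 were used, per the submitters' processing notes; the gene annotation used is not stated there. The deposited counts give, for each gene, the number of reads that align uniquely to its model, and the authors scaled the deposited RPKM with size factors, per the file headers. Of 36528 Entrez identifiers, 31049 matched a symbol in RefSeq's GRCm38.p6 table; exon overlaps came from GENCODE.

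Counts were tested over all genes with edgeR 4.0.16 in R 4.3.3 (quasi-likelihood F test, robust dispersion, TMM factors, filterByExpr, Benjamini-Hochberg adjustment, threshold 0.05) and the script was tested on simulated data. Standard errors were derived from the fold change and its F value. CPM use TMM-adjusted totals. The likeness measure used log2(CPM + 0.01) over genes of at least 1 CPM. Alternatives were other scalings, other filters, DESeq2 1.42.0, limma-voom (limma 3.58.1), a test against a 1.5-fold change and each library left out; removal of GC and length trends was added after seeing the data. The genes and lists were chosen with earlier results of these data known. Named from each list were up to 4 genes that passed with the smallest adjusted p; any other gene of a list was named after its values were seen. No gene rose among the 10, so the likeness rule was applied to the largest fall only. A gene of the lists is not reported here by name; it stayed in all tests and counts.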

Additional observations from a re-analysis of the deposited data

How the results depend on the processing

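Of 180 values of the 10 genes under 18 alternatives each, 173 kept their direction and their side of the threshold. The test against a 1.5-fold change ended the call for 6 of the 9 falls, leaving 3 of the 10 genes lower, and it left 370 genes higher and 1014 lower over the whole table. Spred1 went from -0.18 to -0.11 on removal of GC and length trends and kept its call. Spred2, which did not pass, had a log2 fold change of 0.00595 after removal of GC and length trends, a fit limited to the 85.1% of tested genes with both values. Over the libraries left out in turn, the number of the 10 genes that fell was 9 each time and the genes lower over the whole table numbered 5172 to 5370. Apart from the test against a 1.5-fold change, other settings gave 4808 lower genes (GC and length trends removed) to 5754 (library totals alone). With shares of raw counts in place of RPKM, the BAP1 KO minus WT difference in percentage points was 2.64 for Dusp4, -1.82 for Dusp5 and -9.15 for Etv4, against 3.11, -3.23 and -10.8 per length, and that of Dusp6 was -0.825 against 0.119; raw counts weight long genes more. No paired analysis was possible because the labels give no replicate numbers. Scaling choices moved the median of all genes by less than 0.1 on the log2 scale. The lowest count behind any of the 10 genes was 1015 in a library.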
